A study of Homo sapiens with 9 samples.

Results

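The 9 genes described here encode core parts of the tight junction: the claudins CLDN1, CLDN4, CLDN7 and CLDN12, occludin (OCLN), junctional adhesion molecule A (F11R), the scaffold proteins ZO-1 (TJP1) and ZO-3 (TJP3), and cingulin (CGN). They were chosen by gene symbol from the 16199 genes listed in at least 1 library, with earlier results of these data known. All 9 were listed in every library and passed the filter on low counts. RNA came from HaCaT cells, an immortalized human keratinocyte line labelled as wild type (WT). Post-confluent cells were left untreated, treated with EGF (10 nM, 24 h) or treated with bleogen pB1 (1 µM, 24 h), a plant-derived miniprotein that the study describes as an agonist of the EGF receptor. All 3 groups were kept in serum-free medium, and each had 3 libraries. No source states that the cultures of a group were grown separately, so the p-values measure the spread between these libraries, which may be technical. The doses of EGF and bleogen pB1 differ, so the comparison of the treatments holds for these doses only.

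Tight junctions seal the space between neighbouring epithelial cells near their apical border. Claudins form the paired strands that set which ions and solutes pass between the cells, occludin travels with those strands, and JAM-A is an adhesion protein of the immunoglobulin superfamily. ZO proteins and cingulin lie beneath the membrane and link the strands to actin and myosin. In the epidermis, functional tight junctions sit in the granular layer, and loss of CLDN1 makes the skin barrier leak water.

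The deposited expected counts (estimated fragments per gene) summed to 20288417 to 21320994 per library. Counts are given below as CPM (counts scaled to library size with TMM factors), and levels of different genes are compared as FPKM, which also divides by gene length. A floor of 3 counts corresponds to 0.141 to 0.148 CPM before TMM factors are applied and covers counting error only. The 10 keratinocyte markers examined all had at least 10 counts in every library, with summed levels of 13536 to 14826 CPM without treatment, 12097 to 12753 CPM with EGF and 13038 to 15309 CPM with bleogen pB1. KRT5 was the largest part of these sums, which hide opposite shifts of single markers with EGF. Mean KRT5 went from 7811 CPM untreated to 3604 with EGF, and KRT15 from 443 to 123. By contrast, KRT14 went from 1578 to 2908, COL17A1 from 845 to 1339 and TP63 from 221 to 313 CPM. The other 5 changed less on the log2 scale. The summed level of 7 fibroblast markers was 7.62 to 9.31 CPM without treatment, 1.30 to 2.00 with EGF and 6.08 to 9.17 with bleogen pB1. PDGFRA was at 0 in all untreated libraries, COL1A2 and LUM in all EGF-treated ones, and COL1A2 and PDGFRA in all bleogen pB1-treated ones. In untreated libraries COL1A2 had at most 3 counts and LUM at most 5. The 5 leukocyte markers summed to 12.3 to 14.0, 20.3 to 22.1 and 12.03 to 12.6 CPM in the same order of groups, of which CD68 made up the most. The 4 listed melanocyte markers and the 4 endothelial markers each summed to at most 1.58 CPM in every library, with the lowest range with EGF. The part of these shifts in the results below was not tested. In bulk RNA, fewer cells of a type and less RNA per cell cannot be told apart.

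In untreated cells the claudins and JAM-A had the highest levels per length. CLDN1 led with 329 ± 18.3 FPKM (mean ± SD, n = 3), followed by F11R with 102 ± 2.12 and CLDN7 with 101 ± 3.31 FPKM, whose ranges overlapped. CLDN4 had 59.6 ± 1.98, CLDN12 17.2 ± 0.535 and TJP1 11.2 ± 0.585 FPKM. The lowest levels were those of OCLN (6.47 ± 0.187 FPKM), TJP3 (5.60 ± 0.327 FPKM) and CGN (4.76 ± 0.0961 FPKM). Apart from F11R and CLDN7, no neighbours in this order overlapped, and the highest mean was 69.1 times the lowest.

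The first comparison asked how EGF changed these genes. EGF downregulated CLDN1, TJP3 and CGN and upregulated CLDN4 and CLDN7, so that members of the claudin family moved in opposite directions. TJP3 fell the most, to 0.0694 of its untreated level, whereas CLDN4 doubled to 2.02 times. A gene was called with an adjusted p of at most 0.05 (edgeR quasi-likelihood test, Benjamini-Hochberg over 12394 genes) and a |log2FC| of at least 0.5. By this rule 5 of the 9 genes were called, beside 36.9% of all genes tested. Of them 2 were higher, beside 15.1% of all genes, and 3 were lower, beside 21.8%. With the adjusted p alone all 9 genes passed, but so did 66.1% of all genes, and the CPM values of the groups did not overlap for any of the 9, as for 70.4% of all genes. At a |log2FC| of at least 1, 4 of the 9 were called, beside 15.3% of all genes. The median log2 fold change of the 9 genes was −0.42, against −0.013 over all genes tested.

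CLDN1, the claudin whose loss opens the epidermal water barrier, had 1160.2, 1117 and 1032 CPM in the untreated libraries, 305, 309.8 and 287 CPM with EGF, and 1263, 841 and 1060.5 CPM with bleogen pB1. All EGF-treated libraries lay far below the other 6, and the bleogen pB1-treated libraries spread on either side of the untreated ones. With EGF the log2 fold change was −1.88 ± 0.12 (SE, adjusted p = 4.0e-08 by edgeR).

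CLDN4, a claudin of upper epidermal layers and many simple epithelia, had 109, 103 and 104 CPM in the untreated, 184, 238 and 217 CPM in the EGF-treated and 98.9, 124 and 116 CPM in the bleogen pB1-treated libraries. Every EGF-treated library exceeded every other library. EGF gave a log2 fold change of 1.02 ± 0.10 (SE, adjusted p = 1.55e-06 by edgeR).

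CLDN7, which also occurs along the basolateral membrane, had 161, 162 and 152 CPM in the untreated, 214, 273 and 242 CPM in the EGF-treated and 164, 178 and 166 CPM in the bleogen pB1-treated libraries. The EGF-treated libraries were again the highest, although their spread was wide. EGF treatment gave a log2 fold change of 0.62 ± 0.08 (SE, adjusted p = 1.9e-05 by edgeR).

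CLDN12, a claudin without the usual C-terminal motif that binds ZO proteins, had 60.1, 59.7 and 62.5 CPM in the untreated, 53.0, 36.3 and 44.1 CPM in the EGF-treated and 57.6, 53.4 and 51.8 CPM in the bleogen pB1-treated libraries. The EGF-treated libraries were below the untreated ones but overlapped with bleogen pB1. Its log2 fold change with EGF, −0.45 ± 0.11 (SE, adjusted p = 0.00236 by edgeR), did not reach the fold limit.

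OCLN, the strand protein with 4 membrane passes, had 40.9, 39.6 and 38.5 CPM in the untreated, 28.0, 31.2 and 29.8 CPM in the EGF-treated and 34.9, 35.3 and 35.9 CPM in the bleogen pB1-treated libraries. The 3 groups did not overlap, with bleogen pB1 between the other two. The log2 fold change with EGF was −0.42 ± 0.07 (SE, adjusted p = 0.000145 by edgeR), under the fold limit. F11R, the adhesion protein, showed the same order, with 481, 497 and 471 CPM in the untreated, 367, 405 and 393 CPM in the EGF-treated and 459, 416 and 436 CPM in the bleogen pB1-treated libraries. Its log2 fold change with EGF was −0.31 ± 0.06 (SE, adjusted p = 0.000449 by edgeR), also under the limit.

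TJP3, the ZO scaffold confined mainly to epithelia, had 17.9, 16.1 and 17.0 CPM in the untreated, 0.700, 1.91 and 0.915 CPM in the EGF-treated and 14.1, 9.93 and 12.6 CPM in the bleogen pB1-treated libraries. The EGF-treated values rest on 14, 38 and 19 expected counts, against at least 214 in each of the other 6 libraries. The groups did not overlap, and EGF stood far below both of the others. The log2 fold change with EGF was −3.85 ± 0.24 (SE, adjusted p = 4.61e-08 by edgeR). CGN, the cytoplasmic protein that binds ZO proteins and myosin, had 24.0, 23.5 and 24.2 CPM in the untreated, 10.8, 9.16 and 9.72 CPM in the EGF-treated and 26.7, 27.4 and 26.9 CPM in the bleogen pB1-treated libraries. Here EGF was lowest and bleogen pB1 highest, without overlap. For CGN the log2 fold change with EGF was −1.27 ± 0.09 (SE, adjusted p = 8.7e-08 by edgeR).

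TJP1, the ZO scaffold found in most cells with junctions, had 85.0, 81.2 and 88.9 CPM in the untreated, 103, 99.6 and 90.5 CPM in the EGF-treated and 85.1, 87.2 and 91.1 CPM in the bleogen pB1-treated libraries. The EGF-treated libraries were above the untreated ones by a small margin and overlapped with bleogen pB1. For TJP1 the log2 fold change with EGF was 0.20 ± 0.06 (SE, adjusted p = 0.0148 by edgeR), far under the fold limit.

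**Figure D1:**
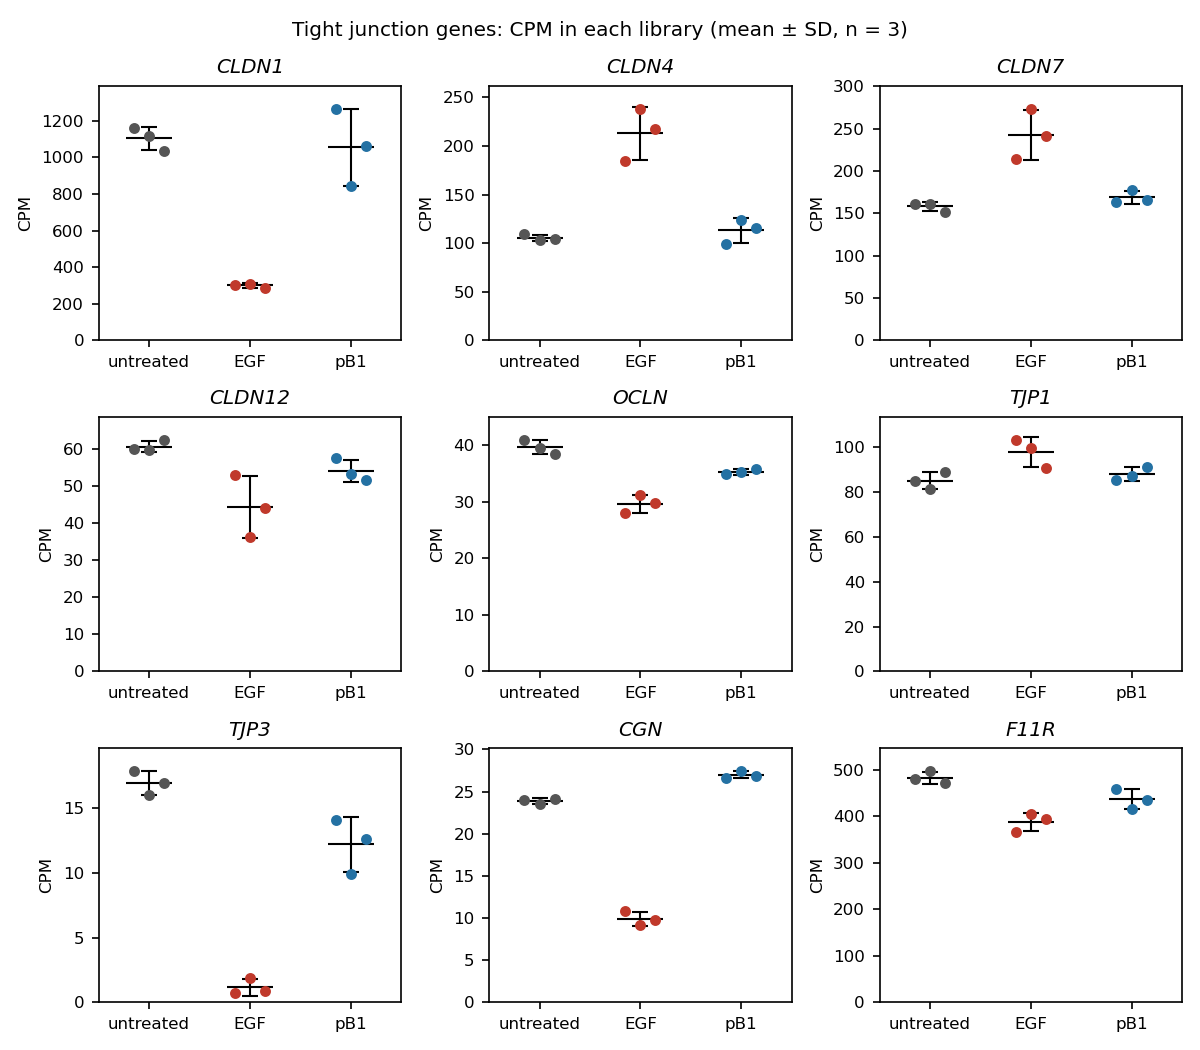
CPM (counts scaled to library size, linear axes from 0) of the 9 genes in each library, with points for the 3 libraries of a group and black bars for the mean ± SD. EGF-treated libraries stand below the untreated ones for CLDN1, TJP3 and CGN and above them for CLDN4 and CLDN7, whereas bleogen pB1-treated libraries lie near the untreated ones.

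The calls of these 5 genes held in all 17 alternative fits, but the size for TJP3 depended on the scale: its log2 fold change was −2.28 with limma on log2(FPKM + 1), which understates changes of low genes. CLDN12 was called in 4 of the 17 fits, among them the one without EGF replicate 1 (log2 fold change −0.59), and OCLN in 1.

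The second comparison asked whether bleogen pB1, the other EGF receptor agonist, changed these genes. None of the 9 genes was called with bleogen pB1 by edgeR, nor by DESeq2 or limma, beside 1.48% of all genes tested (0.218% higher and 1.26% lower). At an unadjusted p under 0.05, 4 of the 9 passed (TJP3, OCLN, F11R and CGN), beside 22.2% of all genes. With the adjusted p alone none did, beside 4.11% of all genes. The 183 genes called over all genes became 436 without bleogen pB1 replicate 1, 109 without replicate 2, 102 without replicate 3 and 102 without untreated replicate 1, and none of the 9 genes was called in any of these fits. The CPM values of bleogen pB1-treated and untreated libraries did not overlap for 6 of the 9 genes, beside 29.1% of all genes tested. The median log2 fold change was −0.065, against −0.001 over all genes. Since this comparison and the first share the untreated libraries, their values are set side by side only.

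TJP3 had the largest difference with bleogen pB1. All 3 treated libraries were below all 3 untreated ones, with a log2 fold change of −0.47 ± 0.18 (SE, adjusted p = 0.14 by edgeR; 95% interval −0.86 to −0.09). Over the 17 alternative fits its adjusted p ranged from 0.0415 (edgeR on the 6 libraries compared) to 0.433, and its log2 fold change from −0.59 to −0.35. OCLN had −0.17 ± 0.07 (interval −0.31 to −0.02) and F11R −0.15 ± 0.06 (−0.27 to −0.02) on the log2 scale. CGN, by contrast, was higher in 3 of 3 treated libraries, at 0.18 ± 0.08 (0.005 to 0.35). Their edgeR adjusted p was 0.17 for OCLN, 0.17 for F11R and 0.21 for CGN.

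For the other 5 genes the 95% interval of the log2 fold change with bleogen pB1 included 0. It ran from −0.31 to 0.18 for CLDN1, from −0.11 to 0.31 for CLDN4 and from −0.07 to 0.27 for CLDN7. For CLDN12 it ran from −0.39 to 0.07 and for TJP1 from −0.09 to 0.19. The CLDN1 estimate was −0.06 ± 0.11 (SE) and changed sign to 0.07 without bleogen pB1 replicate 2, the library with the lowest CLDN1 value outside the EGF group.

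The third comparison set EGF directly against bleogen pB1. EGF-treated cells had less CLDN1, TJP3 and CGN and more CLDN4 and CLDN7 than bleogen pB1-treated cells. These 5 genes were called, beside 28.8% of all genes tested, with 2 higher (10.8% of all genes) and 3 lower (18% of all genes). With the adjusted p alone 8 genes passed, beside 58.2% of all genes, and at a |log2FC| of at least 1, 3 genes did, beside 11.8%. The groups did not overlap for 7 of the 9 genes, beside 62.4% of all genes.

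The log2 fold change of EGF against bleogen pB1 was −3.38 ± 0.25 (SE) for TJP3 and −1.81 ± 0.12 for CLDN1, with edgeR adjusted p of 2.45e-07 and 7.4e-08. For CGN it was −1.45 ± 0.09 (edgeR adjusted p = 3.71e-08). CLDN4 was higher by 0.91 ± 0.10 (edgeR adjusted p = 5.35e-06) and CLDN7 by 0.52 ± 0.08 (edgeR adjusted p = 0.000113). The call of CLDN7 held in 10 of the 17 alternative fits. It was lost, among others, without EGF replicate 2 (0.44) and without bleogen pB1 replicate 1 (0.497), the value being close to the fold limit of 0.5.

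The 4 genes that were not called had smaller differences between the treatments. CLDN12 was at −0.29 ± 0.11 (SE, adjusted p = 0.0352 by edgeR), OCLN at −0.25 ± 0.07 (0.00712), F11R at −0.17 ± 0.06 (0.0267) and TJP1 at 0.15 ± 0.06 (0.0554) on the log2 scale. The 95% interval for TJP1 ran from 0.01 to 0.29.

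**Figure D2:**
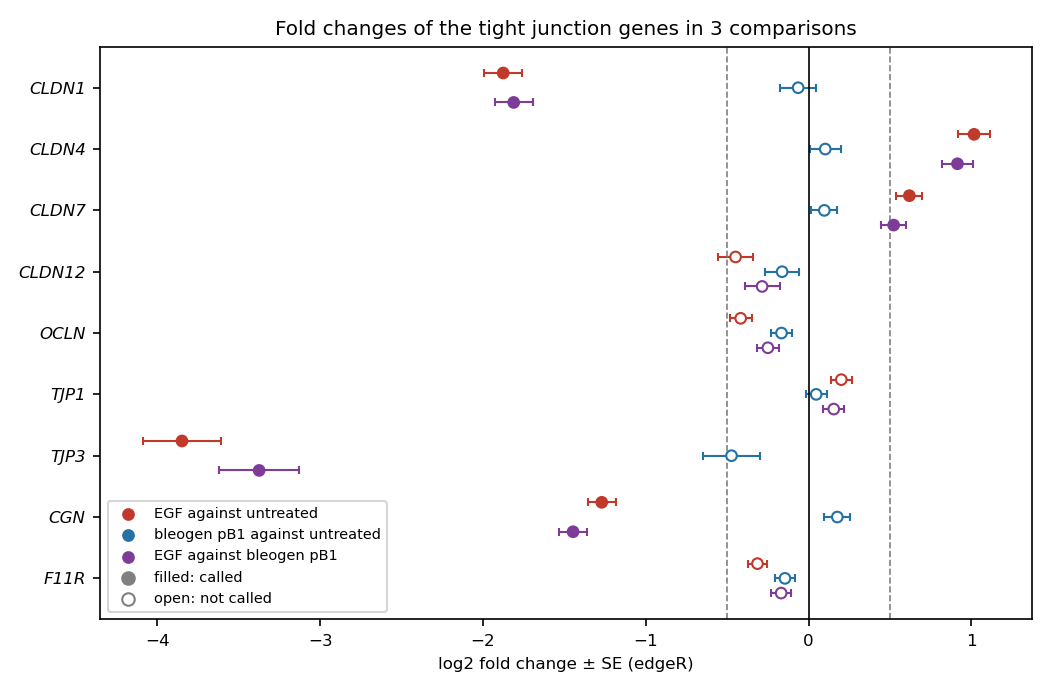
Log2 fold change ± SE (edgeR, horizontal axis) of each gene in the 3 comparisons, with filled points for called genes and dashed lines at −0.5 and 0.5. The 5 called genes have filled points in both comparisons that involve EGF, and all points of bleogen pB1 against untreated lie between −0.47 and 0.18.

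The opposite movements changed the make-up of the claudin transcripts. Within the summed FPKM of CLDN1, CLDN4, CLDN7 and CLDN12, CLDN1 took 65.6%, 65.2% and 64.1% in the untreated libraries, 26.4%, 22.5% and 23.0% with EGF, and 68.3%, 56.1% and 63.4% with bleogen pB1. The share of CLDN4 was 11.7%, 11.4% and 12.2% in untreated, 30.2%, 32.6% and 32.8% with EGF and 10.2%, 15.7% and 13.1% with bleogen pB1. CLDN1 was thus the main claudin of this set in 6 libraries and CLDN7 in the 3 EGF-treated ones. The mean share of CLDN7 was 19.9% ± 0.321 (SD, n = 3) untreated, 40.8% ± 1.63 with EGF and 21.3% ± 3.18 with bleogen pB1. That of CLDN12 was 3.39% ± 0.244, 3.40% ± 0.923 and 3.08% ± 0.249 in the same order. The summed FPKM of the 4 claudins was 507 ± 22.3 untreated, 360.0 ± 32.4 with EGF and 506 ± 51.1 with bleogen pB1.

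The share of CLDN4 was 20.1 percentage points higher with EGF than in untreated cells, and 18.9 points higher than with bleogen pB1. The two-sided exact permutation test gave p = 0.1 for both, the smallest value that 3 against 3 libraries allow, so p < 0.05 could not be reached. With bleogen pB1 the share differed by 1.25 points from untreated (exact permutation p = 0.6), within the spread of its libraries.

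**Figure D3:**
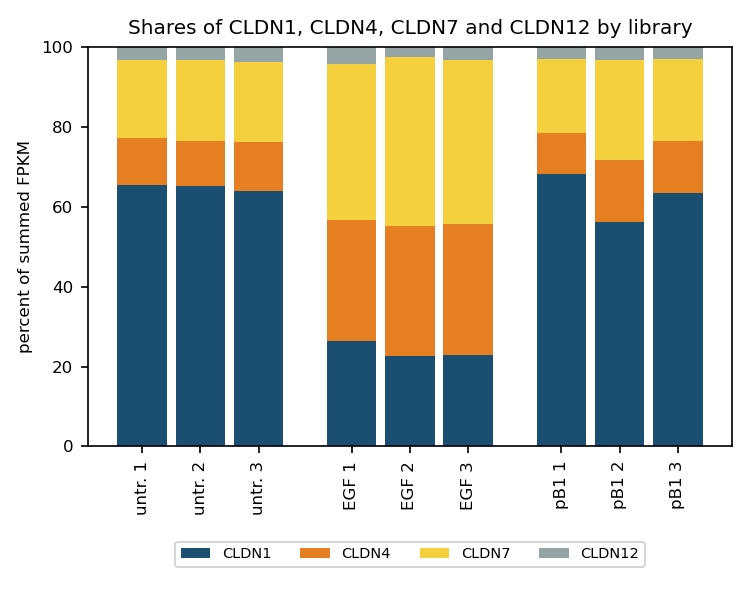
Percent of the summed FPKM taken by each of the 4 claudins in the 9 libraries, one stacked bar per library. The share of CLDN1 drops from 64.1% or more in untreated libraries to 26.4% or less with EGF, while those of CLDN4 and CLDN7 grow.

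The order of the levels per length also differed between treatments. With EGF, CLDN7 (147 ± 19.0 FPKM) and CLDN4 (115 ± 14.7 FPKM) came first with overlapping ranges, followed by CLDN1 (85.9 ± 3.34 FPKM) and F11R (78.8 ± 4.21 FPKM), which overlapped too. TJP1 (12.4 ± 0.813 FPKM) and CLDN12 (12.03 ± 2.22 FPKM) overlapped as well, and below them came OCLN (4.65 ± 0.277 FPKM), CGN (1.89 ± 0.152 FPKM) and TJP3 (0.373 ± 0.208 FPKM). The highest mean was 394 times the lowest. With bleogen pB1 the order was CLDN1 (319 ± 62.7 FPKM), CLDN7 (107 ± 5.10), F11R (93.6 ± 4.32), CLDN4 (64.9 ± 7.68), CLDN12 (15.5 ± 0.788), TJP1 (11.7 ± 0.465), OCLN (5.84 ± 0.105), CGN (5.44 ± 0.0950) and TJP3 (4.09 ± 0.693 FPKM). No neighbours in it overlapped, and TJP3 was below CGN, whereas it was above CGN in untreated cells.

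The sequences before the start sites are given for the 5 called genes, because these genes moved in opposite directions. They are the 250 bases upstream of the start of the reference transcript, taken 5′ to 3′ on the gene's strand from RefSeq (GRCh38.p14). A promoter window was found for 8 of the 9 genes, and F11R had none. TJP1 had 4 windows and CLDN7, OCLN and TJP3 had 2 each, of which only the window at the reference start was searched. The windows, with 50 further bases from the start on, were searched on both strands for TGANTCA (the AP-1 site, bound by Fos and Jun proteins), CAGGTG (an E-box bound by SNAI and ZEB repressors) and AACCNGTT (the site of grainyhead-like factors). Capitals mark matches to these motifs.
CLDN4: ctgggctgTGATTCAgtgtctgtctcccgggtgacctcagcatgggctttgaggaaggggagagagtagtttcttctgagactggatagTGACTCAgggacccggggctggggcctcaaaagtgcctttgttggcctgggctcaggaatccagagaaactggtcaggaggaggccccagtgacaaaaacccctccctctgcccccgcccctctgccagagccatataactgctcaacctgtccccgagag
CLDN7: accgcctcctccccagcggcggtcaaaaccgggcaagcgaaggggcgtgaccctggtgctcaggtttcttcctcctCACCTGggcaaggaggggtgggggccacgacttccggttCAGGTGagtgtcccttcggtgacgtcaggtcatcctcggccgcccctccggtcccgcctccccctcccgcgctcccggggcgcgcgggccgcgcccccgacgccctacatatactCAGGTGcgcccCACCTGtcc
CLDN1: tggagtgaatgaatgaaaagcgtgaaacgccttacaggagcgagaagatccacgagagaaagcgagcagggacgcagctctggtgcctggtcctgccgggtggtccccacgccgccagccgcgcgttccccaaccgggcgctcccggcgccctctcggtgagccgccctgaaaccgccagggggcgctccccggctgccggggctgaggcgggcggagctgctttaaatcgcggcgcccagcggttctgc
TJP3: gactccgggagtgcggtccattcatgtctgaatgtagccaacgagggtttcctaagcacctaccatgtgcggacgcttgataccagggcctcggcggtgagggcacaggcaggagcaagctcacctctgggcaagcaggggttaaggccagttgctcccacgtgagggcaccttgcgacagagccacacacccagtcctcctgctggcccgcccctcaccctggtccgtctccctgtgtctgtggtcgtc
CGN: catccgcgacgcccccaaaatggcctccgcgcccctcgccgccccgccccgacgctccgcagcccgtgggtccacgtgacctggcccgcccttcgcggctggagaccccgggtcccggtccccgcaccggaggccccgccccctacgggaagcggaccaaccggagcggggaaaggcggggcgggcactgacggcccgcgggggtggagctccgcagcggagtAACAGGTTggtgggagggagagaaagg

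The printed stretch lies at chr7:73830746-73830995 on the plus strand for CLDN4, at chr17:7262479-7262728 on the minus strand for CLDN7 and at chr3:190322447-190322696 on the minus strand for CLDN1. For TJP3 it lies at chr19:3708134-3708383 and for CGN at chr1:151511137-151511386, both on the plus strand. Positions below count the start base as 1, and no base is numbered 0. CLDN4 was the only one of the 8 genes with AP-1 letters in the window searched, at −242 and −161, a motif present in 7.71% of all 35116 promoter windows. CLDN7 held 5 E-boxes, at −174, −135, −20, −9 and 6, and OCLN held 2, at −133 and 36, beside 20.6% of all windows with at least 1. CGN had the grainyhead-like letters at −27, which 1.73% of all windows hold. No match of one motif overlapped another, and the searched windows of CLDN1, CLDN12, TJP1 and TJP3 had none. A match describes letters only, and binding was not measured.

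A wider list of 56 other tight junction genes was examined beside the 9. Of these, 4 had no entry, 20 did not pass the filter on low counts and 32 were tested. With EGF, 3 of the 32 were higher, beside 15.1% of all genes, and 7 lower, beside 21.8%. The median log2 fold change was −0.083. With bleogen pB1 none was called by edgeR, DESeq2 or limma, beside 1.48% of all genes by edgeR. At an unadjusted p under 0.05, 6 of the 32 passed, beside 22.2% of all genes, and the median was −0.055. For EGF against bleogen pB1, 3 were higher, beside 10.8% of all genes, and 6 lower, beside 18%, with a median of −0.16. These shares of all genes also stand beside the counts in the smaller groups of genes below.

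Of the 20 other claudins, 4 were tested and 2 were called, both lower with EGF. CLDN16, known for magnesium transport in the kidney, went from 3.52 ± 0.777 CPM (SD, n = 3) to 0.546 ± 0.225 CPM (log2 fold change −2.68 ± 0.33 SE, adjusted p = 1.5e-05 by edgeR). CLDN9 went from 0.807 ± 0.416 to 0.232 ± 0.0612 CPM (−1.78 ± 0.48 SE, adjusted p = 0.00528 by edgeR), with 4 to 6 counts in the EGF-treated libraries. CLDN23, a claudin of the epidermis, was at −0.26 ± 0.31 (SE, adjusted p = 0.48 by edgeR). These are low levels beside the 4 claudins above.

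Of 5 genes listed under tricellular junctions (the points where 3 cells meet), 4 were tested and 1 was called with EGF. ILDR1 (angulin-2) went from 1.58 ± 0.0781 to 0.543 ± 0.300 CPM (log2 fold change −1.53 ± 0.35 SE, adjusted p = 0.00193 by edgeR). LSR (angulin-1), at 156 ± 4.34 CPM in untreated cells, had a log2 fold change of 0.14 ± 0.10 (SE, adjusted p = 0.23 by edgeR), and MARVELD2 (tricellulin) one of 0.29 ± 0.11 (0.0286). Neither of the 2 tested genes among 6 JAM and CAR adhesion proteins was called in any comparison.

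Of 15 cytoplasmic plaque genes, 12 were tested, and 3 were higher and 2 lower with EGF. AMOT (angiomotin), which binds junction scaffolds and YAP, had 119, 113 and 117 CPM in the untreated, 34.2, 28.6 and 31.2 CPM in the EGF-treated and 135, 126 and 134 CPM in the bleogen pB1-treated libraries. As with CGN, EGF was lowest and bleogen pB1 highest without overlap. Its log2 fold change with EGF was −1.89 ± 0.07 (SE, adjusted p = 5.1e-10 by edgeR). ARHGEF2 (GEF-H1), a RhoA activator that cingulin can hold at junctions, rose from 62.5 ± 0.872 to 132 ± 14.0 CPM (log2 fold change 1.08 ± 0.07 SE, adjusted p = 8.5e-08 by edgeR). AMOTL1 rose from 116 ± 6.27 to 176 ± 7.58 CPM (0.60 ± 0.07 SE, adjusted p = 7.5e-06 by edgeR), opposite in direction to AMOT. All 10 apical polarity genes were tested, and 2 were lower with EGF: PARD3B (−1.45 ± 0.16 SE, adjusted p = 4.8e-06 by edgeR) and PRKCZ, atypical protein kinase C zeta (−0.84 ± 0.10 SE, adjusted p = 1.15e-05 by edgeR).

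Of 12 transcription factor genes known to act in epithelial junctions or keratinocyte differentiation, 10 were tested. With EGF, 2 were lower and 2 higher. ELF3, an epithelial ETS factor, had 54.5, 56.9 and 59.3 CPM in the untreated, 7.50, 9.77 and 6.84 CPM in the EGF-treated and 47.1, 35.3 and 47.2 CPM in the bleogen pB1-treated libraries. The groups did not overlap, in the order seen for TJP3. Its log2 fold change was −2.82 ± 0.14 (SE, adjusted p = 5.1e-09 by edgeR) with EGF and −0.40 ± 0.12 (SE, adjusted p = 0.0757 by edgeR) with bleogen pB1. GRHL2, a grainyhead-like factor, was lower with EGF (−0.62 ± 0.08 SE, adjusted p = 1.36e-05 by edgeR), and KLF4 (0.69 ± 0.11 SE, adjusted p = 0.000101 by edgeR) and OVOL1 (0.51 ± 0.12 SE, adjusted p = 0.00162 by edgeR) were higher. None of the 10 was called with bleogen pB1. For EGF against bleogen pB1, ELF3 (−2.43 ± 0.14 SE), GRHL2 (−0.55 ± 0.08 SE) and GRHL3 (−0.89 ± 0.24 SE, adjusted p = 0.00659 by edgeR) were lower. GRHL3 had 3.11 ± 0.425 CPM untreated, 2.78 ± 0.982 with EGF and 5.18 ± 0.848 with bleogen pB1 (SD, n = 3). It was not called for EGF against untreated (−0.16 ± 0.25 SE, adjusted p = 0.59 by edgeR).

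**Figure D4:**
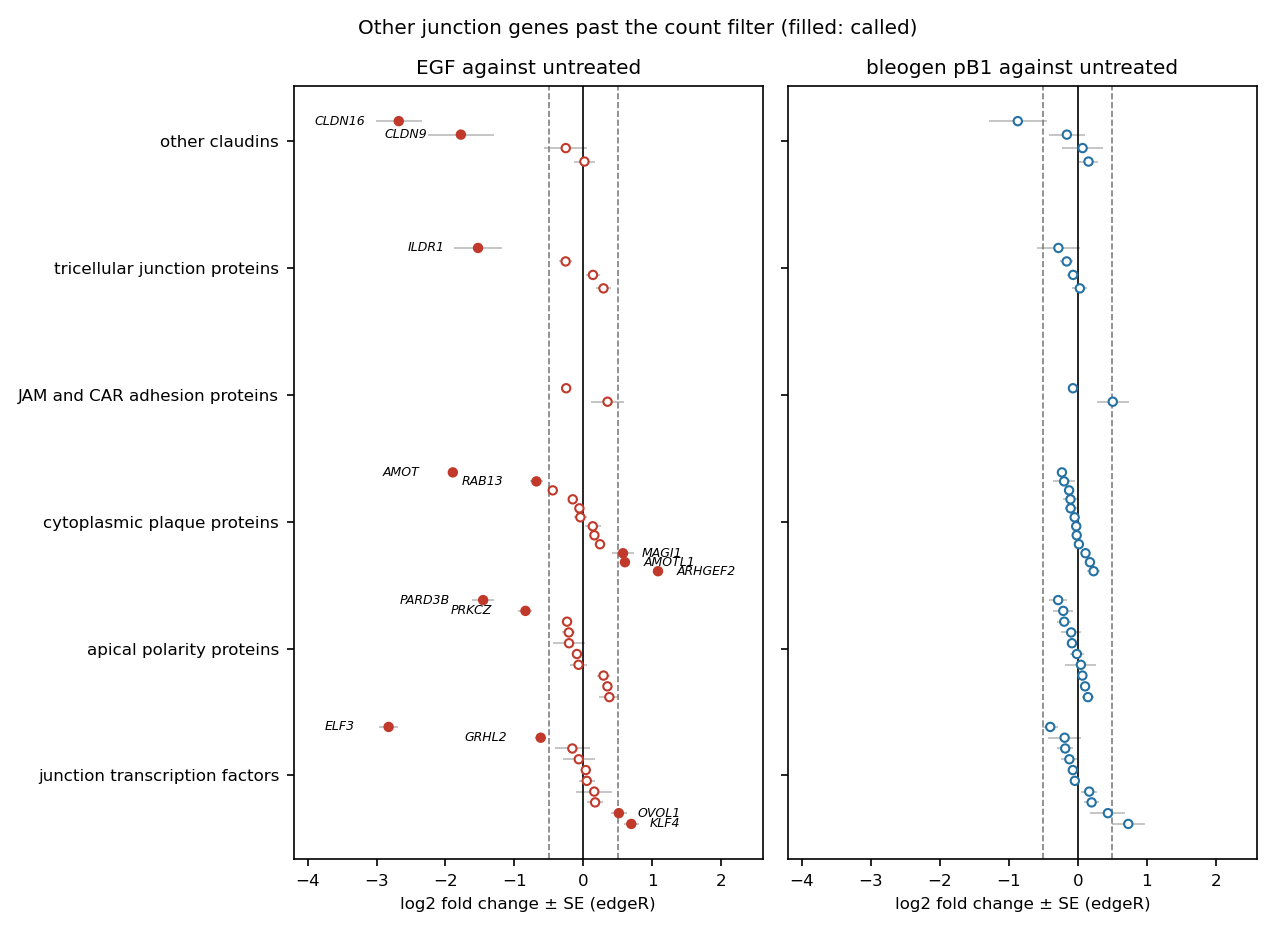
Log2 fold change ± SE (edgeR) of other tight junction genes and junction transcription factors past the count filter, by group of genes, with EGF on the left and bleogen pB1 on the right, and with called genes filled and named. With EGF, 14 genes pass the limits drawn as dashed lines at −0.5 and 0.5 and the adjusted p, 9 of them lower. With bleogen pB1 none does. Of all genes tested, 36.9% were called with EGF (21.8% lower) and 1.48% with bleogen pB1.

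The genes whose profiles over the 9 libraries were most like that of TJP3, by the root mean square distance of log2 CPM from each gene's untreated mean among 12160 genes, were CACNG4 (distance 0.249), RTP4 (0.287) and IFI44L (0.289). For CLDN4 they were FXR2 (0.065), DUS3L (0.0727) and GNA15 (0.0745). The distance used log2 CPM with a prior count of 2. As these genes were picked over the same 9 libraries, similar fold changes follow from the choice and are no separate result. The log2 fold changes with EGF and bleogen pB1 were −4.69 and −0.44 for CACNG4, −3.94 and −0.88 for RTP4, and −3.95 and −0.82 for IFI44L. They were 0.98 and 0.05 for FXR2, 0.97 and 0.19 for DUS3L, and 0.92 and 0.10 for GNA15.

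On the plus strand GENCODE release 44 (GRCh38) places CLDN4 at chr7:73799542-73832690, CLDN12 at chr7:90383721-90513402, OCLN at chr5:69492292-69558104, TJP3 at chr19:3708362-3750813 and CGN at chr1:151510510-151538692. On the minus strand it places CLDN1 at chr3:190305707-190322446, CLDN7 at chr17:7259903-7263983, TJP1 at chr15:29699367-29968915 and F11R at chr1:160995211-161021343, and all 9 are protein-coding genes. In that annotation CLDN7 overlaps ELP5 by 38 bases and TJP3 overlaps APBA3 by 42 bases, each on the opposite strand, and no source states whether the counting used the strand of the stranded libraries. CLDN12 lies within spans shared with GTPBP10 and CDK14 on its own strand. OCLN, CLDN7 and TJP1 have pseudogene copies (OCLNP1, CLDN7P1 and TJP1P1), none of them listed in the deposited files. Their counts are uncertain where reads were divided between copies. The expected counts of CLDN7 and TJP1 were whole numbers in every library. For OCLN and F11R some were not, such as 560.95 for OCLN in EGF replicate 1 and 9981.11 for F11R in untreated replicate 1. CLDN7 and F11R also overlap protein-coding entries without a gene name on their own strand, by 2187 and 23387 bases. Neither entry was listed. CLDN1, CLDN4 and CGN each had 1 RefSeq transcript in the deposited files.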

How the data were processed

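RNA was sequenced in 9 HaCaT libraries, 3 per group, assigned from the deposited labels. Libraries were made from oligo-dT-selected RNA with dUTP strand marking. Sources differ on the RNA kit (RNeasy in the labels, PureLink in the paper) and on the sequencer (DNBSEQ or BGISEQ). Per the sources, reads were mapped to GRCh38.p12 at BGI. The aligner and counter are not given in the sources used here. For each gene the authors deposited expected counts, which are estimated fragments not scaled for depth. They also deposited FPKM, scaled for gene length and depth. The gene length, in bases, was deposited by the authors as an average over transcripts. A gene without an entry in a library was counted as 0. Of the columns with values per sample, 0 belonged to other samples.

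The rounded expected counts went into edgeR 4.0.16 under R 4.3.3 (filterByExpr, 12394 genes, TMM factors, glmQLFit and glmQLFTest, all 9 libraries in one fit with 6 residual degrees of freedom, Benjamini-Hochberg adjustment). Calls needed an adjusted p of at most 0.05 and a |log2FC| of at least 0.5. SE was |log2FC| divided by the square root of F. CPM used TMM factors. Shares of FPKM were compared by two-sided exact permutation tests. Tables were made with Python 3.11.15, pandas 2.3.3 and numpy 2.4.6. The code was tested on simulated data with known changes.

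The 9 genes, the other lists and the tests were chosen with earlier results of these data known. From the other lists, the genes named were the called ones without overlap between groups, up to 3 per group of genes by adjusted p, with MARVELD2, LSR and CLDN23 in any case. OVOL1, and RAB13 and MAGI1 in the plot of other genes, fall outside this rule and were named after their values were seen. A further planned gene, and the shares of FPKM that need it, are not reported here. For TJP3 and CLDN4 the 3 genes with the most similar profile were named. Markers and pseudogenes were named beside the values they touch.

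Alternatives were DESeq2 1.42.0, limma 3.58.1 on log2(FPKM + 1) or log2(FPKM + 0.1), other scaling factors, count filters and fold limits, edgeR on the 6 libraries compared, leaving out each replicate, and a block on the replicate number. The replicate numbers were not taken as pairs in the main fit. The mean correlation of same-numbered libraries was 0.028 for EGF and untreated, 0.096 (−0.03 to 0.21) for bleogen pB1 and untreated and 0.040 for EGF and bleogen pB1. With 3 libraries per group this check cannot exclude pairing. Promoter sequences are RefSeq entries on GRCh38.p14. Coordinates are 1-based.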

Additional observations from a re-analysis of the deposited data

How the results depend on the processing

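The numbers of called genes among the 9 and in the wider list kept to within 1.5 times of the reported ones except under other limits. Over all genes, the 183 called for bleogen pB1 against untreated became 102 to 436 when 1 library was left out. With the adjusted p alone, EGF against untreated had 9 of the 9 tight junction genes and 20 of the wider list called. That stands beside 66.1% of all genes. For EGF against bleogen pB1 the numbers were 8 and 19, beside 58.2%. With a |log2FC| of at least 1, the wider list gave 6 for EGF against untreated, beside 15.3% of all genes. For EGF against bleogen pB1 the wider list gave 5 and the 9 genes gave 3, beside 11.8%. Leaving out 1 library at a time, the difference in the CLDN4 share between bleogen pB1 and untreated ran from −0.11 (without bleogen pB1 replicate 2) to 2.68 percentage points. The CLDN1 log2 fold change of the same comparison ran from −0.21 to 0.07134, and it was above 0 only without bleogen pB1 replicate 2. The fit with the replicate block called 5, 0 and 5 of the 9 genes and 10, 0 and 9 of the wider list, the same counts as without it. Upper-quartile factors moved the median log2 fold change of all genes to −0.12 for EGF against untreated, and none of the 5 called tight junction genes changed direction. With 3 libraries per group, exact permutation tests could not pass 0.05. Low counts limit the EGF values of TJP3 (14 to 38), CLDN16 (8 to 16), ILDR1 (4 to 15) and CLDN9 (4 to 6).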
